A study of Homo sapiens with 12 samples.

Results

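The HRD1 ubiquitin ligase complex and the derlins were followed here as 10 genes, taken by symbol from the 28278 rows of the count table, in which all 10 were found. They were SYVN1 and SEL1L of the ligase core, HERPUD1, HERPUD2 and FAM8A1 of its adaptors, the derlins DERL1, DERL2 and DERL3, and the lectins OS9 and ERLEC1. RNA was sequenced in bulk from alpha cells of the pancreatic islet type that had been made in culture from a human embryonic stem cell line in wide use, HUES-8. The tunicamycin group (6 samples) received 5 uM of the drug and the DMSO group (6 samples) the solvent alone, each for 48 h in bioreactors of 30 mL at 40 rpm. All cells came from the same line, and both groups held 3 samples from each of 2 sequencing batches. The comparison asked how ER stress changes these transcripts in a model of diabetic alpha cell dysfunction.

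Proteins that fail to fold in the endoplasmic reticulum (ER) are returned to the cytosol and destroyed by the proteasome, a route called ER-associated degradation (ERAD). HRD1, the product of SYVN1, is a membrane-spanning ubiquitin ligase of this route, and SEL1L holds it together and passes substrates to it. Tunicamycin blocks the assembly of N-linked glycans, so newly made glycoproteins misfold and the unfolded protein response switches on genes of folding and disposal. Secretory cells such as islet endocrine cells carry a heavy load of folding clients.

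The promoters of HERPUD1 and HERPUD2 are shown because these sequence relatives gave the strongest and the weakest response among the tested members, and those of SEL1L and SYVN1 because they encode the ligase core. RefSeq (GRCh38.p14) held promoters for 8 members, all except DERL1 and DERL3. Each runs from 250 bases before the annotated start to the 50 bases that follow it. The windows of HERPUD2 and DERL2 lie wholly inside these genes as GENCODE places them, with a start further upstream. Bases upstream of those GENCODE starts were not searched. The HERPUD1 promoter lies at chr16:56931892-56932191 on the plus strand, that of HERPUD2 at chr7:35695086-35695385 on the minus strand, that of SEL1L at chr14:81533804-81534103 on the minus strand and that of SYVN1 at chr11:65134470-65134769 on the minus strand. Sequences read 5′ to 3′ on the gene's strand, and capitals mark a motif match on either strand.
HERPUD1: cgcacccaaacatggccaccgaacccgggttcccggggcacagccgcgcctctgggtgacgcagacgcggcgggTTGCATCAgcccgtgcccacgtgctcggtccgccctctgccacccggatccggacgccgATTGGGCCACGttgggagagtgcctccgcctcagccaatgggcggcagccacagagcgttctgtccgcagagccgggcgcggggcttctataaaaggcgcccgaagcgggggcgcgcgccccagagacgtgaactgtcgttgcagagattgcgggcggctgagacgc
HERPUD2: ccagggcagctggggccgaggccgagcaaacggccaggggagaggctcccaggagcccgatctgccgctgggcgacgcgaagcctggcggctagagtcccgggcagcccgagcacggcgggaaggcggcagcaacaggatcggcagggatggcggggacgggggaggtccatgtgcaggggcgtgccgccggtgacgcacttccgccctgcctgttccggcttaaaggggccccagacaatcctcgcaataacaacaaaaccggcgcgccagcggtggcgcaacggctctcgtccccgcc
SEL1L: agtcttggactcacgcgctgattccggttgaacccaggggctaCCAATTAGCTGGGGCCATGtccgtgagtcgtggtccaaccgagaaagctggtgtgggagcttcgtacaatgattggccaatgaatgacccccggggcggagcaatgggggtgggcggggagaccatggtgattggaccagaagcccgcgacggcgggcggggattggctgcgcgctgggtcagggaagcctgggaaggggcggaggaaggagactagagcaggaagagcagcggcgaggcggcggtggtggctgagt
SYVN1: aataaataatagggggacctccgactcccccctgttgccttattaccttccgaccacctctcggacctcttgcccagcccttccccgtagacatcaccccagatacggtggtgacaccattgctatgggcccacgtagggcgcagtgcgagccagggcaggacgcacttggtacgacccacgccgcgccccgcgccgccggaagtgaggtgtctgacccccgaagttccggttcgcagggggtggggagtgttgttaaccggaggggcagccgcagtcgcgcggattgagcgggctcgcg

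Both strands were searched for 5 motifs of the unfolded protein response. The ER stress response element ERSE-II (ATTGG, 1 free base, CCACG) was found in the HERPUD1 promoter, at positions -117 to -107 from the start, and in 0.0541% of 35116 promoters of this length. The C/EBP-ATF element (TGATG, 1 free base, AA), the kind of site to which ATF4 and CHOP bind, was found on the minus strand of the same promoter, at -176 to -169, and in 3.62% of promoters. The classical ERSE (CCAAT, 9 free bases, CCACG) was in 0.0769% of promoters and in none of the 8 of the members. With the last block loosened to CCANG, a spelling chosen after the SEL1L promoter had been read, it was found in SEL1L, at -207 to -189, and in 0.370% of promoters. The core of the unfolded protein response element (TGACGTGG) was in 0.729% of promoters and in none of the 8. The loosened ERSE contains every match of the classical one. Other spellings 1 base away from the classical ERSE were not searched, and SEL1L is not alone in holding one. The SYVN1 promoter printed above holds CCATT, 9 free bases and CCACG, and that of HERPUD1 holds CCAAT, 9 free bases and CCACA. The share of all promoters with these spellings was not counted. No match says only that these letters are absent from this window.

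Libraries held 17523442 to 28872269 counts, and expression is given as CPM, read counts per 1000000 counts of the scaled library. The stress itself was visible in HSPA5, the main ER chaperone, at 5270.0 ± 1022 CPM with tunicamycin and 845 ± 144 CPM with DMSO (SD, n = 6 each, edgeR adjusted p = 3.75e-07). The 12 alpha cell markers, among them GCG, together held 59464 to 95593 CPM with tunicamycin and 80321 to 119721 CPM with DMSO, and 3 of them fell. The 16 mesenchymal markers summed to 1187 to 2471 CPM with tunicamycin and 1429 to 3819 CPM with DMSO, with a median log2 fold change of -0.93 and 0 of 16 called by edgeR, 5 at an unadjusted p under 0.05 and 1 called by DESeq2. The 10 heart muscle markers summed to 14.3 to 1129 CPM with tunicamycin and 10.1 to 2036 CPM with DMSO, were highest in both samples numbered 5, and had 0 of 10 called by edgeR, 1 at an unadjusted p under 0.05 and 1 called by DESeq2. Of the markers of other cells that could be present, 4 of 10 ductal and acinar, 5 of 6 liver and gut and 3 of 6 beta cell genes fell, and no marker of any list was at 0 throughout a group. Fits with the mesenchymal mean as a covariate and without the samples numbered 5 are given with the results, and the part of the other lists was not tested. In bulk RNA, fewer cells of a type and less RNA per cell cannot be told apart.

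Tunicamycin raised most of the machinery, and the members answered by very different amounts. Of the 10 genes 9 were abundant enough to be tested, and 7 of these rose and 0 fell, where 7.84% of the 17137 genes tested were called, 4.56% higher and 3.29% lower. The median log2 fold change of the 9 was 0.84, against -0.01 over all genes tested. The groups did not overlap for 5 of the 9, all higher with tunicamycin, where 2.47% of genes tested lay wholly higher and 1.3% wholly lower. Within sample pairs of equal number, 8 of the 9 were higher with tunicamycin in 6 of 6 pairs, and HERPUD2 in 5. The share of all genes tested that did so was not counted. Of the 50 other ERAD genes described below, 24 were higher in 6 of 6 pairs.

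**Figure D1:**
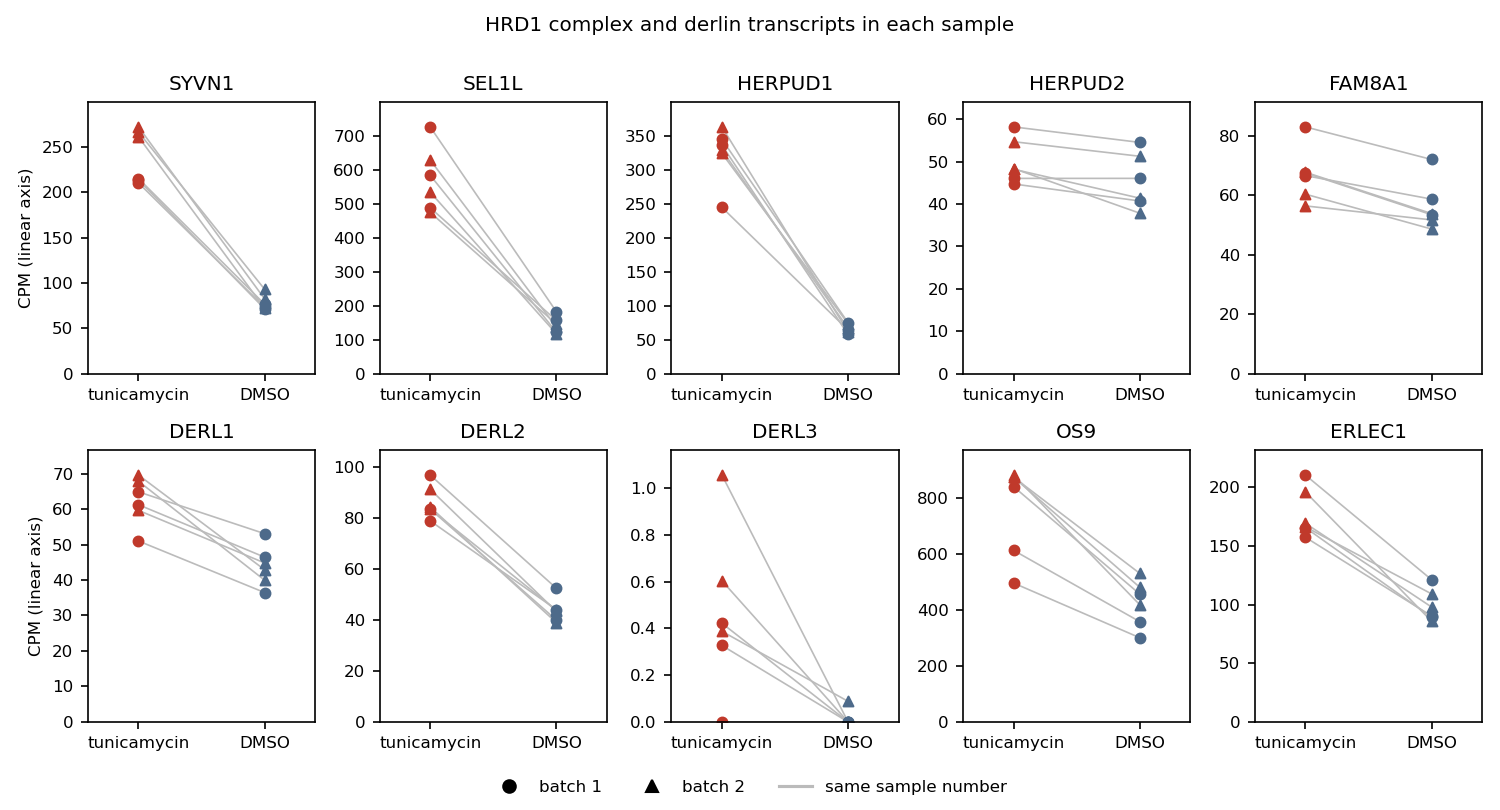
CPM of each of the 10 members (linear axes starting at 0) in the 6 tunicamycin and 6 DMSO samples, with circles for batch 1, triangles for batch 2 and grey lines between samples of equal number. HERPUD1, SEL1L and SYVN1 separate widely, at 245 to 363 against 57.8 to 75.0 CPM for HERPUD1, while HERPUD2 overlaps at 44.7 to 58.2 against 37.8 to 54.5 CPM.

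SYVN1 (ENSG00000162298.18, chromosome 11, 65121780 to 65134533, minus strand, GRCh38), which encodes the ligase, had a lowest value of 210.1, a median of 238 and a highest value of 272 CPM with tunicamycin, against 71.5, 75.0 and 93.0 CPM with DMSO. All 6 tunicamycin samples lay above all DMSO samples, and those of batch 2 (261 to 272 CPM) lay above those of batch 1 (210.1 to 215 CPM). The gene rose 3.05-fold (log2 fold change 1.61 ± 0.08, SE, edgeR adjusted p = 8.19e-08). In GENCODE, 7.24% of its exon bases are shared with FAU on the same strand and 6.48% with MRPL49 on the other.

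SEL1L (ENSG00000071537.13, chromosome 14, 81471549 to 81533861, minus strand), the partner that stabilises HRD1, had a lowest value of 474, a median of 559 and a highest value of 725 CPM with tunicamycin, against 118, 142 and 183 CPM with DMSO. The groups stood far apart, and the samples numbered 2 were the highest in each. It rose 3.99-fold (1.99 ± 0.13 on the log2 scale, edgeR adjusted p = 7.77e-07). Its rise within pairs ran from 1.64 to 2.25 on the log2 scale, wider than the 1.49 to 1.86 of SYVN1.

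HERPUD1 (ENSG00000051108.14, chromosome 16, 56932048 to 56944863, plus strand), a membrane protein with a ubiquitin-like domain that binds HRD1, gave the largest response of the tested members. Its lowest, median and highest values were 245, 332 and 363 CPM with tunicamycin, against 57.8, 65.7 and 75.0 CPM with DMSO. Tunicamycin 3 stood below the other 5 of its group and still above every DMSO sample. The rise was 4.85-fold (log2 fold change 2.28 ± 0.11, edgeR adjusted p = 5.89e-08), or 2.35 on the log2 scale without tunicamycin 3. By p-value it was number 3 of all genes tested, with SYVN1 number 5 and SEL1L number 12.

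The other adaptors did not pass the test. HERPUD2 (chromosome 7, 35632659 to 35695571, minus strand), the relative of HERPUD1, had a lowest value of 44.7, a median of 48.3 and a highest value of 58.2 CPM with tunicamycin, against 37.8, 43.7 and 54.5 CPM with DMSO. The groups overlapped over most of their range, with a log2 fold change of 0.14 ± 0.11 (edgeR adjusted p = 0.489). FAM8A1 (chromosome 6, 17600355 to 17611719, plus strand), which binds HRD1 and helps the complex assemble, ran from 56.5 to 83.0 CPM with tunicamycin around a median of 67.1, and from 48.7 to 72.1 CPM with DMSO around a median of 53.7. It was higher with tunicamycin in 6 of 6 pairs by 0.13 to 0.34 on the log2 scale, a change of 0.25 ± 0.10 that was not called (edgeR adjusted p = 0.143). With the sample number as a block FAM8A1 was called (edgeR adjusted p = 0.0288), a fit in which 17.3% of all genes tested were called, 8.92% higher and 8.4% lower.

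The derlins, which form part of the channel through which substrates leave the ER, split into a stronger and a weaker responder and a gene close to the limit of detection. DERL2 (chromosome 17, 5471251 to 5486811, minus strand) had a lowest value of 78.9, a median of 83.9 and a highest value of 96.8 CPM with tunicamycin, against 39.0, 43.6 and 52.4 CPM with DMSO. The groups did not overlap, and the gene rose 1.97-fold (0.98 ± 0.09 on the log2 scale, edgeR adjusted p = 1.46e-05). DERL1 (chromosome 8) had 51.0, 63.0 and 69.6 CPM as its lowest, median and highest values with tunicamycin, against 36.5, 43.8 and 53.1 CPM with DMSO. Tunicamycin 3 lay below DMSO 2, so the groups overlapped, and the rise was 1.42-fold (0.50 ± 0.11, edgeR adjusted p = 0.0106). Without both samples numbered 5, in which heart muscle markers were highest, DERL1 was not called (0.45, edgeR adjusted p = 0.0639), while the other 6 called members still were.

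DERL3 (chromosome 22, 23834503 to 23839128, minus strand) did not pass the filter on low counts. It had 59 reads in the tunicamycin libraries, 8 in each of tunicamycin 1, 2 and 6, 22 in tunicamycin 4, 13 in tunicamycin 5 and 0 in tunicamycin 3. The DMSO libraries held 2 reads, both in DMSO 6. The ratio of the summed counts, scaled for library size, was 31.0, with a 95% exact binomial interval of 8.22 to 262 that covers counting error only. In a fit with no filter it was called (edgeR adjusted p = 0.0105), where 5.24% of 24066 genes were called, 2.94% higher and 2.29% lower. In GENCODE, 77.0% of the exon bases of DERL3 are shared with SMARCB1 on the opposite strand, so its counts are uncertain. SMARCB1 itself stood at 13.9 ± 15.6 CPM with tunicamycin and 13.0 ± 8.9 CPM with DMSO (SD, n = 6 each).

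The lectins, which bind trimmed glycans on substrates and hand them to SEL1L, rose by nearly equal amounts. OS9 (chromosome 12, 57693955 to 57721557, plus strand) had 496, 857 and 882 CPM as its lowest, median and highest values with tunicamycin, against 301, 437 and 530.4 CPM with DMSO. Tunicamycin 3 lay below DMSO 6, but within each batch the groups did not overlap. ERLEC1 (chromosome 2, 53787044 to 53818819, plus strand) had 158, 168 and 211 CPM with tunicamycin, against 85.9, 94.2 and 121 CPM with DMSO, with no overlap. Both rose 1.79-fold, OS9 by 0.84 ± 0.14 (edgeR adjusted p = 0.0018) and ERLEC1 by 0.84 ± 0.11 (edgeR adjusted p = 0.00033) on the log2 scale.

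**Figure D2:**
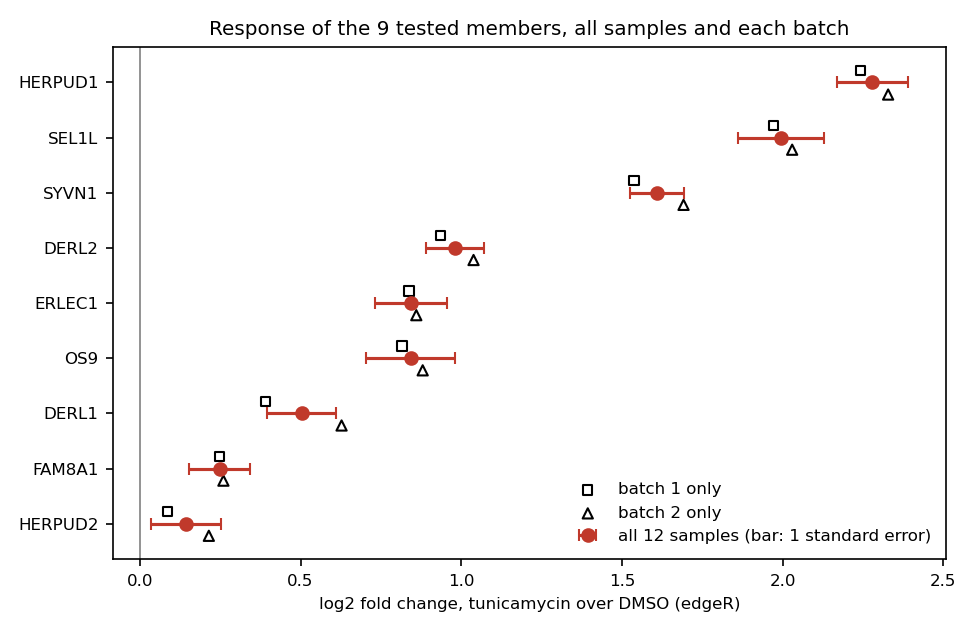
Log2 fold change of the 9 tested members, tunicamycin over DMSO, from all 12 samples with bars of 1 standard error (filled), from batch 1 alone (squares) and from batch 2 alone (triangles). The order runs from HERPUD1 at 2.28 to HERPUD2 at 0.14, and both batches fall on the same side of 0 for each member.

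The response did not detectably differ between batches. HERPUD1 changed by 2.24 in batch 1 and 2.33 in batch 2, SEL1L by 1.97 and 2.03, and SYVN1 by 1.54 and 1.69 on the log2 scale. The widest gap was that of DERL1, at 0.39 in batch 1 and 0.63 in batch 2. The interaction of treatment and batch was called for 0 of the 9 members by edgeR and by DESeq2, with 0 at an unadjusted p under 0.05 by either, and for 0% of all genes tested by edgeR (0.986% at an unadjusted p under 0.05). The smallest unadjusted edgeR p among the 9 was 0.273, for DERL1. The 0.986% lies below the 1 in 20 that chance alone would give at this threshold. With 3 samples per group and batch, the test was therefore cautious, and 0 of 9 does not show equal responses. In batch 1 alone, with 3 samples a group, HERPUD1, SEL1L and SYVN1 were called, where 0.301% of genes tested were called higher. The 4 members not called there had log2 fold changes of 0.94 for DERL2, 0.84 for ERLEC1, 0.82 for OS9 and 0.39 for DERL1. In batch 2 alone the same 7 as in all samples were called, where 2.7% of genes tested were called higher.

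Related members were then compared within each library, as the log2 ratio of their counts, which does not depend on the scaling of the library. Labels were permuted within batches, giving 400 arrangements and a smallest possible p of 0.005, with adjustment over the 7 pairs compared. With the sample number as a block, as a sign-flip test over 6 pairs, none of the 7 was called, with adjusted p from 0.0547 (exact) for the ratios of SEL1L to SYVN1, HERPUD1 to SYVN1, HERPUD1 to HERPUD2 and DERL2 to DERL1 upward. Each of these named ratios was already at 0.0313, the smallest sign-flip p that 6 sample pairs allow. A larger shift could not have lowered it, so this test cannot grade the size of their shifts. The HERPUD1 to HERPUD2 ratio ran from 2.45 to 2.87 with tunicamycin and from 0.27 to 0.83 with DMSO, on the log2 scale. This shift of 2.13 was present in 6 of 6 pairs (exact permutation p = 0.005, adjusted 0.0117). HERPUD1 also gained on SYVN1, with a mean log2 ratio of 0.43 ± 0.19 with tunicamycin and -0.23 ± 0.24 with DMSO (SD, n = 6 each, exact permutation p = 0.005, adjusted 0.0117).

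Within the core, SEL1L gained on SYVN1. The mean log2 ratio was 1.25 ± 0.32 with tunicamycin and 0.87 ± 0.29 with DMSO (SD, n = 6 each), with overlapping groups but a higher value in 6 of 6 pairs (exact permutation p = 0.02, adjusted 0.028). The call was lost without tunicamycin 1 (adjusted p = 0.056), tunicamycin 2 (0.063) or DMSO 1 (0.0583).

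DERL2 gained on DERL1, with a mean log2 ratio of 0.47 ± 0.21 with tunicamycin and -0.0017 ± 0.18 with DMSO and no overlap (SD, n = 6 each, exact permutation p = 0.005, adjusted 0.0117). Ratios of DERL3 rest on 61 reads in all. With a pseudocount of 0.5 they rose by 2.92 against DERL1 (exact permutation adjusted p = 0.0263) and by 2.45 against DERL2 (0.035). Since 5 of 6 DMSO libraries held 0 reads, the size depended on the pseudocount. With a pseudocount of 5 the shift against DERL1 was 0.88 (exact adjusted p = 0.049) and that against DERL2 was 0.41 and not called (0.344). The shift against DERL2 also lost its call without any 1 of samples 1, 2, 4 or 5 of either group (exact permutation adjusted p up to 0.0758). The OS9 to ERLEC1 ratio was 2.08 ± 0.30 with tunicamycin and 2.08 ± 0.23 with DMSO (SD, n = 6 each, exact permutation p = 0.92). Leaving out a single sample moved that shift between -0.04 and 0.06.

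**Figure D3:**
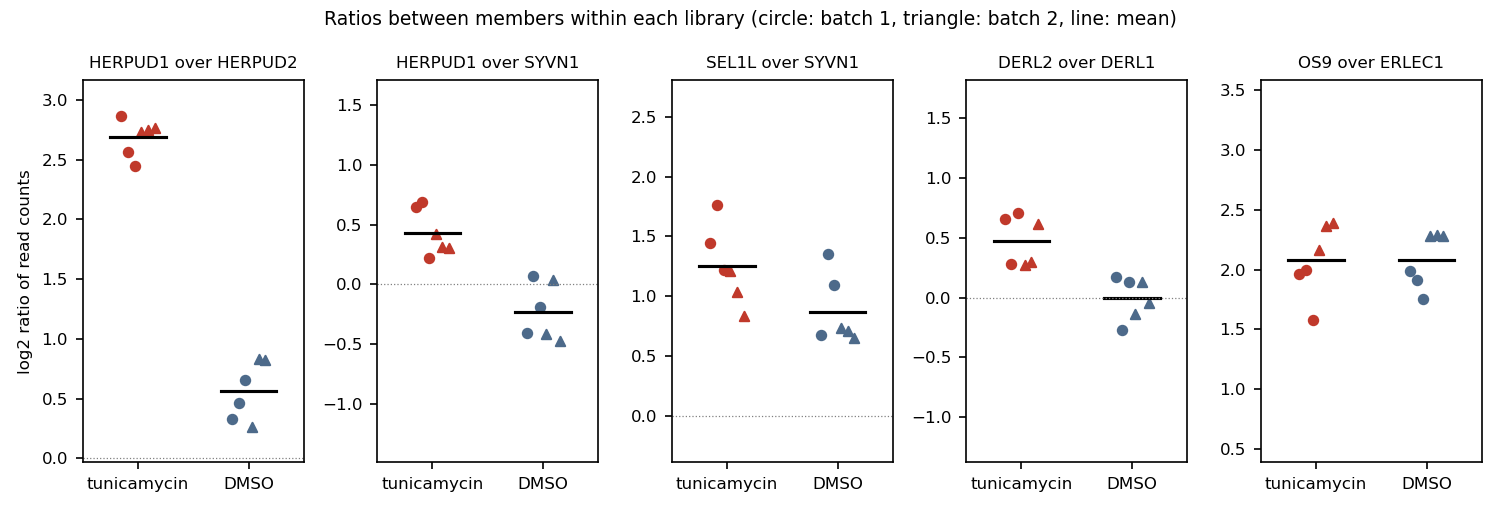
Log2 ratio of the read counts of 2 members in each library, tunicamycin left and DMSO right, with circles for batch 1, triangles for batch 2 and a line at the mean; each panel spans the same number of log2 units. The HERPUD1 to HERPUD2 ratio averaged 2.69 with tunicamycin and 0.56 with DMSO, while that of OS9 to ERLEC1 averaged 2.08 in each.

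Levels can be compared between genes only per length, and for this the CPM were divided by the kilobases of the union of GENCODE exons. OS9 was the most abundant member in both groups, at 147.6 ± 32.2 CPM per kilobase with tunicamycin and 82.0 ± 16.2 with DMSO (SD, n = 6 each), followed by ERLEC1 at 68.5 ± 8.0 and 38.2 ± 5.3. The order below OS9 depended on the length used, and is given for the exon union first and for the longest protein-coding transcript, a length added after seeing the data, second. By exon union, HERPUD1 averaged 62.8 ± 8.0 with tunicamycin and 12.9 ± 1.3 with DMSO, and ranked 3 and 6 of 10. By longest transcript it averaged 109.8 ± 13.9 with tunicamycin and 22.6 ± 2.3 with DMSO, and ranked 2 and 4. HERPUD2 lay just above HERPUD1 with DMSO by exon union (13.96 ± 2.01, with overlapping samples) and below it by longest transcript (14.8), while with tunicamycin it lay below HERPUD1 by both (15.4 ± 1.6 and 16.4). SEL1L was above SYVN1 with tunicamycin by exon union (59.9 ± 9.9 and 43.6 ± 5.4, without overlap), and below it by longest transcript (72.2 and 76.2). With DMSO the means of SEL1L, SYVN1, HERPUD2, HERPUD1 and FAM8A1 spanned 15.04 down to 12.07 by exon union, each overlapping its neighbour, and 24.9 for SYVN1 down to 12.07 for FAM8A1 by longest transcript. DERL2 (13.5 ± 1.0 with tunicamycin, 6.86 ± 0.74 with DMSO) and DERL1 (8.80 ± 0.95 with tunicamycin, 6.20 ± 0.81 with DMSO) ranked 8 and 9 in both groups by exon union. By longest transcript DERL2 ranked 6 and DERL1 7 with tunicamycin, and with DMSO DERL1 (13.2) ranked 7 and DERL2 (10.4) ranked 9. OS9 was first and DERL3 last in both groups by both lengths, DERL3 with 0.123 ± 0.092 with tunicamycin and 0.0039 ± 0.0095 with DMSO by exon union.

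**Figure D4:**
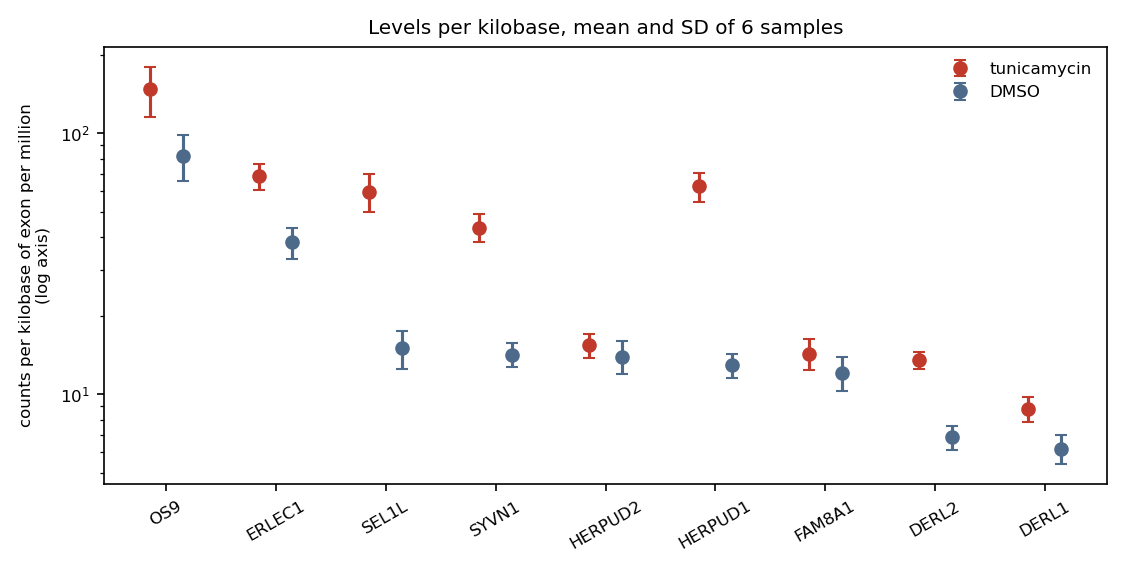
CPM per kilobase of exon (log axis) for the 9 tested members, as mean and SD of 6 tunicamycin (red, left) and 6 DMSO (blue, right) samples, in the order of the DMSO means. HERPUD1 and HERPUD2 stand at 62.8 and 15.4 with tunicamycin and at 12.92 and 13.96 with DMSO, where HERPUD1 is above HERPUD2 if the longest transcript is the length (22.6 and 14.8).

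Among 50 other genes of ERAD and of the folding checks that feed it, 14 rose and 0 fell, where 4.56% of all genes tested rose. None of the 50 was lower at an unadjusted edgeR p under 0.05 or called lower by DESeq2. Their median log2 fold change was 0.22, against 0.84 for the 9 tested members and -0.01 over all genes. With the sample number as a block 23 of the 50 rose and 0 fell, where 8.92% of all genes tested rose and 8.4% fell. The list holds chaperones as well as ERAD genes, and the first 5 of the 8 named next are chaperones or a partner of one. HSPA5 and HSP90B1, the lumenal HSP70 and HSP90, rose by 2.63 each, and DNAJB9, a J-domain partner of HSPA5, by 2.31 on the log2 scale. The lectin chaperones CALR and CANX rose by 1.78 and 1.55. EDEM1, which speeds the mannose trimming that marks substrates, rose 2.70-fold to 139.9 ± 20.4 CPM with tunicamycin, against 51.8 ± 11.8 CPM with DMSO (SD, n = 6 each, edgeR adjusted p = 1.08e-05). HM13, the signal peptide peptidase, rose by 1.34, and SELENOS, which links derlins to the extraction ATPase VCP, by 1.27. For these 8 genes, named because their change was largest, the groups did not overlap. Over the whole list the groups did not overlap for 14 of the 50. Among all genes tested, 2.47% lay wholly higher with tunicamycin and 1.3% wholly lower.

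The 4 most abundant genes of the list that were not called act at the cytosolic or membrane steps. Other genes of these steps were called, such as SELENOS above, SELENOK (log2 fold change 1.01, edgeR adjusted p = 0.00013) and UBE2J1 (0.69, 0.00027). The lumenal EDEM3 was not called (0.40, edgeR adjusted p = 0.0822). Whether calls differ between steps was not tested. VCP, the ATPase that pulls substrates out of the membrane, was at 423 ± 53 CPM with tunicamycin and 346 ± 48 CPM with DMSO (SD, n = 6 each), with a log2 fold change of 0.28 ± 0.10 (edgeR adjusted p = 0.0938, or 0.0254 with the sample number as a block). The ligase MARCHF6 was at 0.13, UBXN4, which tethers VCP to the ER, at 0.16 and TMEM259, which encodes membralin, at -0.12. The 3 genes at the top of the members, HERPUD1, SEL1L and SYVN1, had larger log2 fold changes than 47, 47 and 46 of the 50.

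**Figure D5:**
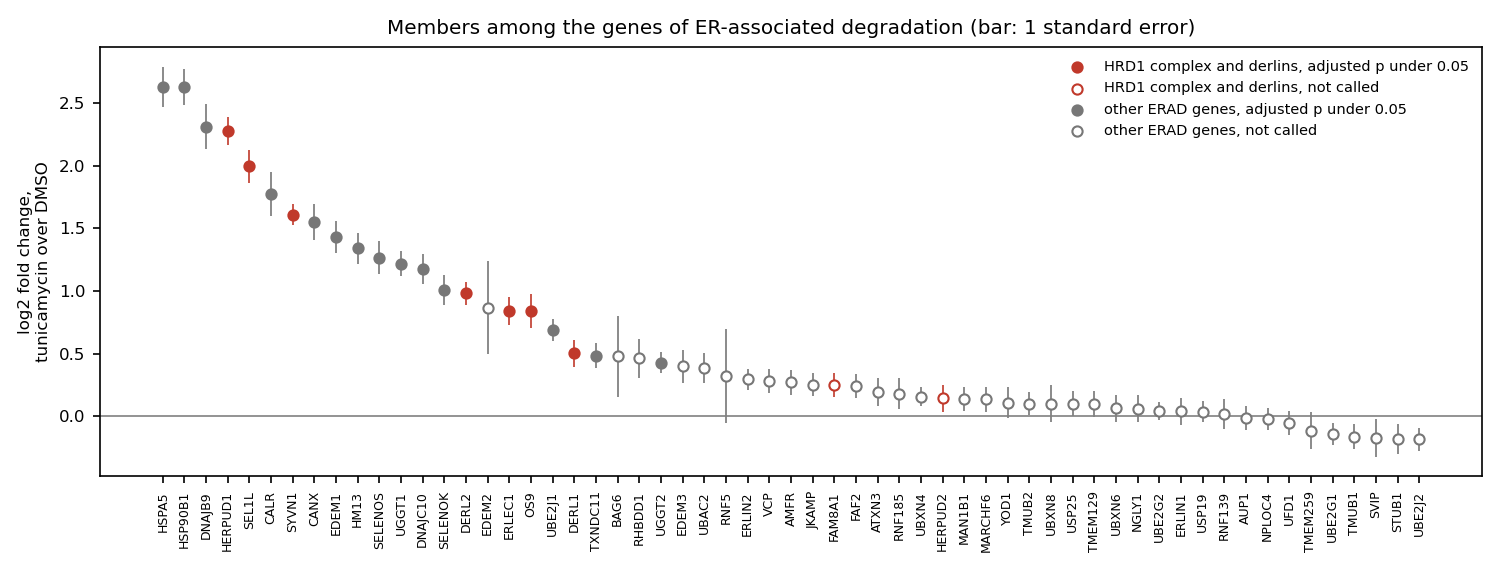
Log2 fold change, tunicamycin over DMSO, of the 9 tested members (red) and 50 other ERAD genes (grey) in descending order, with bars of 1 standard error and filled symbols for an edgeR adjusted p under 0.05. HERPUD1, SEL1L and SYVN1 lie among the chaperones at the left, and FAM8A1 and HERPUD2 among the genes at the right that were not called.

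Profiles over the 12 samples were compared by the root mean square difference of log2 CPM, each gene centred on its own mean, with 11546 genes outside the members. Nearest to SEL1L were DNAJC3 (0.12), ERN1 (0.21) and TRAM1 (0.21), where the median gene differed by 1.04. Nearest to SYVN1 were WARS1 (0.17), STT3A (0.19) and PDIA3 (0.20), against a median of 0.85. Nearest to HERPUD1 were DNAJB11 (0.17), DDIT3 (0.17) and CRELD2 (0.18), against a median of 1.17. The size of the tunicamycin response makes up most of such a profile, and the libraries are shared by all genes.

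The 7 called members were the same in each of the 12 fits that left out a single sample. With the mean of the mesenchymal markers as a covariate the same 7 were called. Over all genes, 930 of the 17137 tested were called with it, 593 higher and 337 lower, against 1344 in the main fit. HERPUD1 was at 2.20, SEL1L at 1.85, SYVN1 at 1.63 and DERL1 nearest the threshold at 0.46 with the covariate (edgeR adjusted p = 0.0475). FAM8A1 was at 0.13 and HERPUD2 at 0.03 with it. For 5 of the 9 tested members the lowest tunicamycin value was that of sample 3.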

How the data were processed

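The authors deposited raw read counts per gene symbol, without normalization, for 12 samples. The build GRCh38 and the tools featureCounts 2.0.6, HISAT2 2.1.0 and cutadapt 4.4 are named in the submitters' processing notes, with no order. Neither annotation nor strand setting is given there, which leaves overlapping genes uncertain.

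Genes were filtered with filterByExpr (17137 kept, 11141 removed) and scaled with TMM in edgeR 4.0.16 (R 4.3.3). Tunicamycin was compared with DMSO by edgeR's quasi-likelihood test, two-sided, with batch as a covariate, Benjamini-Hochberg adjustment over all genes tested and a threshold of 0.05. The standard error is the log2 fold change over the root of the F statistic. DESeq2 1.42.0 and limma 3.58.1 served as alternatives. Ratios used a pseudocount of 0.5, which sets the size of those with DERL3, and exact permutation within batches. Positions are from GENCODE release 29. The edgeR, DESeq2 and limma fits were tried on simulated counts without pairing, and the outcome is not reported here. The ratio tests were not tried in this way.

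All 10 members are reported. Of the other ERAD genes, the text names up to 8 called with the largest change (mean log2 CPM at least 1) and up to 4 not called with the highest CPM. For 3 members it names the 3 nearest profiles (mean log2 CPM at least 3). Members and lists were chosen with earlier results of these data known.

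Deviations of same-number samples from the means of group and batch correlated across genes at 0.12 to 0.58. This was above the 0.1 set as the limit for pairing by number. Samples 4 and 5 each correlated more with a different number (0.196 against 0.12 and 0.273 against 0.184), so their pairing is not clear. The same values were the highest for numbers 2 and 1, whose samples belong to the other sequencing batch. The main fit and the permutations took batch, and not the number, into account. Pairing by number entered only the counts within pairs and the alternatives with the number as a block. Samples are called biological replicates in the labels, which do not state what the number stands for or whether each was a separate differentiation. The p-values therefore cover only the spread among these samples. No libraries of a group were duplicates (chi-square 10.9 to 99.6 per gene). Totals were 17523442 to 28872269 counts, and DERL3 was the only member removed by the filter on low counts.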

Additional observations from a re-analysis of the deposited data

Results flagged for a closer look

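Of 20 groups of 6 values (10 members in each treatment), 2 held a sample set apart from the others by more than the 95% critical gap, and chance gives about 1 in 20. HERPUD1 stood at 245 CPM in tunicamycin 3, below the other 5 tunicamycin samples. DERL3 stood at 0.0880 CPM, or 2 reads, in DMSO 6, where the other DMSO libraries had 0. With all others at 0, any reads in a single library would be set apart, so the rate of 1 in 20 does not apply to DERL3.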

How the results depend on the processing

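The count of called members was 7 in the fit reported, 6 without both samples numbered 5 (added after seeing the data), 8 with the replicate block or with no filter on low counts, and 3 in batch 1 only. It stayed at 7 with each single sample left out. The other ERAD genes called numbered 14, against 23 with the replicate block, 6 in batch 1 only and 14 to 18 with a sample left out. Over all genes the count was 1344, against 2100 by DESeq2, 2967 with the replicate block, 57 in batch 1 only, 654 in batch 2 only, 685 without both samples numbered 5 and 791 to 1399 with a sample left out (791 without tunicamycin 4). In batch 1 only, DERL1, DERL2, OS9 and ERLEC1 were not called, with fewer samples. The cause of the other differences was not tested.

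For ratios, the replicate block is a sign-flip test over 6 pairs, whose smallest p is 0.0313, and none of the 7 adjusted values passed. The ratios with an adjusted p of 0.0547 were at that smallest p before adjustment. The shifts were the same by construction, 0.38 for SEL1L over SYVN1, 0.66 for HERPUD1 over SYVN1, 2.13 for HERPUD1 over HERPUD2, 2.92 and 2.45 for DERL3 over DERL1 and DERL2, and 0.48 for DERL2 over DERL1 (adjusted p = 0.0547 to 0.109, exact). Labels permuted across batches lost the calls of SEL1L over SYVN1 (0.38, adjusted p = 0.0758) and DERL3 over DERL2 (2.45, 0.0576). A pseudocount of 5 gave 0.41 for DERL3 over DERL2. With a sample left out, shifts ran from 0.29 to 0.46 for SEL1L over SYVN1, from 2.00 to 3.17 for DERL3 over DERL2 (called in 4 of 12) and from -0.045 to 0.059 for OS9 over ERLEC1, which was above 0 without tunicamycin 3 (0.059), tunicamycin 4 (0.03), DMSO 1 (0.02) or DMSO 2 (0.00031). DMSO levels per kilobase moved beyond 1 SD for 6 of 9 members with the longest transcript as length, also added after seeing the data.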

Other observations

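Genes related in sequence to the members were measured as well. SEL1L3 was at 35.9 ± 6.0 CPM with tunicamycin and 26.8 ± 8.3 CPM with DMSO (SD, n = 6 each), with overlapping groups (log2 fold change 0.43 ± 0.17, edgeR adjusted p = 0.161, or 0.0444 with the sample number as a block). SEL1L2 had 7 reads over the tunicamycin libraries and 12 over the DMSO libraries. RHBDD2, which has a rhomboid fold as derlins do, rose 1.43-fold (edgeR adjusted p = 0.0244), a call lost without DMSO 4, tunicamycin 4, tunicamycin 5 or tunicamycin 6 (highest adjusted p = 0.0622) and with the mesenchymal covariate (0.127). UBAC2, a further rhomboid-like protein of ERAD, was at 0.39 ± 0.12 and not called (edgeR adjusted p = 0.0626, or 0.0059 with the block), though higher with tunicamycin in 6 of 6 pairs.

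Of the factors that act on ERAD genes, XBP1 rose by 0.74 ± 0.11 on the log2 scale (edgeR adjusted p = 0.00095), with 254 to 320 CPM with tunicamycin and 132 to 200.1 CPM with DMSO. ATF6 was at 97.3 ± 16.3 CPM with tunicamycin and 71.8 ± 14.5 CPM with DMSO (SD, n = 6 each). It was not called (edgeR adjusted p = 0.0738), but was with the block (0.0028) and by DESeq2 (adjusted p = 0.0333). DDIT3 rose by 2.13 ± 0.13 (edgeR adjusted p = 4.06e-07) and ATF4 by 0.46 ± 0.11 (0.0218). The ATF4 call was lost without DMSO 4 or tunicamycin 4 and with the mesenchymal covariate (edgeR adjusted p = 0.102). Counts per gene do not measure the activity of these factors.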
